A study of Mus musculus with 4 samples.

Results

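A sparse population of liver nuclei that carried RNA of Kcnq3, Ltbp2 and other genes ascribed to portal fibroblasts was described in 4 single-nucleus RNA libraries of mouse liver. The nuclei had been proposed as matrix-producing portal fibroblasts. A nucleus, meaning a cell barcode in the deposited matrices, was a member when at least 2 of 8 portal markers (Kcnq3, Ltbp2, Col15a1, Fbn2, Kif26b, Aldh1a2, Sulf1 and Nkd2) and at least 2 of 7 mesenchymal genes (Col1a1, Col1a2, Col3a1, Pdgfrb, Pdgfra, Dcn and Gpc6) had 1 or more unique molecular identifiers (UMIs), the counted RNA molecules. At most 1 of 6 genes of other liver cell types (Pkhd1, Thsd4, Stab2, Ptprb, Adgre1, Skap1) and at most 1 of 4 mesothelial genes (Msln, Wt1, Upk3b, Muc16) could be detected. The rule found 217 of 43664 nuclei, or 0.497%. The wild-type (WT) libraries held 133 members (replicate 1) and 47 (replicate 2), and the knockout libraries held 36 and 1. They are called Kcnq3/Ltbp2 nuclei here, after 2 of the 8 portal markers, though not every member had a UMI of these.

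All livers came from male mice that were 10 to 11 weeks old when a diet with 3,5-diethoxycarbonyl-1,4-dihydrocollidine (DDC), which injures bile ducts, was begun and that ate it for 4 weeks. Control mice on a normal diet were not analysed here, so every group shares the injury. The 2 WT libraries and the 2 conditional knockout (CKO) libraries differed in Rbpj, the DNA-binding partner of Notch receptors, which was deleted in hepatic progenitor cells of CKO mice. The labels name neither the Cre driver nor the deleted exons, and they do not say whether replicates were separate animals, so every p-value measures only the spread between these libraries. The series asked how that deletion bears on fibrosis in DDC-fed mice.

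Portal fibroblasts surround the bile ducts and portal veins and lay down collagen around ducts when bile flow is impaired. Hepatic stellate cells, the other resident source of collagen, lie along the sinusoids, store vitamin A and become collagen-producing myofibroblasts after injury. Fibrillar collagens form the scar, basement membrane collagens and laminins underlie epithelium and vessels, and microfibril proteins such as the fibrillins hold latent transforming growth factor beta (TGF-beta) in the matrix.

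The libraries held 16000, 6480, 16000 and 5184 nuclei and 45620141, 13914845, 38003108 and 12261329 UMIs, in the order WT replicates 1 and 2, then CKO replicates 1 and 2, which is kept below. Whether the 16000 nuclei of both replicate 1 libraries were a number set in processing is not given in the sources used here, and shares of all nuclei rest on it. CKO replicate 1 stood apart. Its mitochondrial genes took 4.10% of all UMIs against 1.35%, 0.400% and 0.559% in the other libraries, and Mup20, a urinary protein made by hepatocytes, had 954 counts scaled to the total UMIs of the nuclei summed (CPM) in all its nuclei together against 9251, 10064 and 10556. CKO replicate 2 had a single member with 2578 UMIs. Values of members are therefore given for the 3 other libraries, where members held 388015, 104747 and 99293 UMIs, and CKO expression rests on CKO replicate 1. Libraries shared between 19 and 114 barcodes with one another, and no member barcode was shared.

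The genes that chose the nuclei are given as a description, without a test. Kcnq3, a potassium channel subunit, had 451, 525 and 282 CPM in members of WT replicate 1, WT replicate 2 and CKO replicate 1, and at most 1.79% of stellate-type nuclei of any library had a UMI of it. Stellate-type nuclei, the comparator, had at least 2 of 12 stellate markers, at least 2 of the 7 mesenchymal genes, at most 1 portal marker and the same exclusions, and numbered 454, 112, 302 and 59. Ltbp2, which binds to microfibrils, had 265, 200 and 383 CPM in members. Kif26b, an atypical kinesin, had 521, 706 and 604 CPM, and Sulf1, an enzyme that trims sulfate from heparan sulfate, had 500, 506 and 453. All 8 portal markers had UMIs in members of these 3 libraries, at similar levels for Col15a1, a collagen of basement membrane zones (299, 353 and 363 CPM), and at more varied ones for Nkd2, an inhibitor of Wnt signalling (69.6, 19.1 and 80.6 CPM).

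Among the mesenchymal genes of the rule, Col3a1, a fibrillar collagen, had 1005, 764 and 665 CPM in members and 376, 319 and 244 in stellate-type nuclei. Col1a1 had 289, 239 and 181 CPM and Col1a2 446, 439 and 312, so that each fibrillar collagen of the rule was lowest in CKO replicate 1. Pdgfra and Pdgfrb, the platelet-derived growth factor receptors of mesenchymal cells, had 227, 162 and 101 CPM and 180, 239 and 242 CPM. Dcn, a small proteoglycan that binds collagen, went the other way between cell groups, with 348, 220 and 302 CPM in members against 588, 629 and 643 in stellate-type nuclei. No gene of the rule was called by genotype in the fit over all 4 libraries described at the end.

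The name portal fibroblast was checked on 16 further markers that the rule did not use. Of these, 14 had at least 1 UMI in members, but their summed level was 196, 162 and 50.4 CPM in members against 89.6, 56.5 and 56.0 in stellate-type nuclei. Thy1 had 1, 2 and 1 UMIs, and Entpd2, an ectonucleotidase of portal fibroblasts, had 8, 1 and 0. Gli1, a Hedgehog effector, and Mfap5, a microfibril protein, had none. Eln, which encodes elastin, had 22, 6 and 2 UMIs. These counts do not carry the name, and the nuclei are called by 2 of the 8 portal markers. Kcnq3 had a UMI in 52.6%, 46.8% and 38.9% of members and Ltbp2 in 38.3%, 25.5% and 44.4%. Kif26b had one in 64.7%, 55.3% and 69.4%. Markers of other cells were present. The cholangiocyte, endothelial, macrophage and mesothelial lists hold exclusion genes of the rule, which partly set their sums and counts in members. The cholangiocyte list summed to 1147, 974 and 997 CPM, of which Bicc1 made up 923, 792 and 866, the endothelial list to 291, 143 and 292, the macrophage list to 219, 38.2 and 292, the smooth muscle list to 49.0, 115 and 50.4 and the mesothelial list to 30.9, 38.2 and 30.2. Of the members, 3, 0, 2 and 0 had 3 or more macrophage markers, 2, 0, 1 and 0 had 3 or more endothelial markers and 8, 3, 2 and 0 had 3 or more cholangiocyte markers. High doublet scores by Scrublet were marked in 2048 of 16000, 336 of 6480, 2048 of 16000 and 215 of 5184 nuclei, a preset number. The marked nuclei included 6, 1, 1 and 0 members, or 4.51%, 2.13%, 2.78% and 0% of them. For stellate-type nuclei the percentages were 14.3%, 4.46%, 10.6% and 3.39%.

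Kcnq3/Ltbp2 nuclei were scarcer in both CKO libraries than in both WT libraries. They made up 0.831% of nuclei in WT replicate 1 (95% Clopper-Pearson interval 0.696 to 0.984%) and 0.725% in WT replicate 2 (0.533 to 0.963%). In CKO replicate 1 the share was 0.225% (0.158 to 0.311%), and in CKO replicate 2 it was 0.0193% (0.000488 to 0.107%). The intervals cover counting error only. The groups did not overlap, with a WT mean of 0.778% ± 0.0749 and a CKO mean of 0.122% ± 0.145 (SD, n = 2 libraries per genotype), and the difference of -0.656 percentage points had p = 0.333 in a two-sided exact permutation test, the smallest p that 2 libraries against 2 allow.

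The same order held within the mesenchymal nuclei, that is, nuclei passing the collagen and receptor genes and the exclusions with any number of portal markers. In the WT libraries 11.0% of 1213 and 17.7% of 265 such nuclei were members. The CKO libraries had 4.52% of 796 and 0.746% of 134. The group means were 14.4% ± 4.79 and 2.63% ± 2.67 (SD, n = 2 each), again without overlap and with p = 0.333 by the exact permutation test. When every nucleus was thinned to 1000 UMIs, which left out none, the shares were 8.43%, 14.9%, 4.92% and 1.56%, so the order was kept at equal depth. With 3 or more portal markers required, 77, 25, 22 and 0 nuclei remained, and a count of 0 among 134 mesenchymal nuclei allows a share of up to 2.72% at the upper 95% limit.

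Nuclei of other types also carried portal markers, and these give the background of the share. At least 2 portal markers were found in 1.47%, 0.806%, 0.580% and 0% of macrophage-type nuclei, in 1.96%, 2.25%, 0.713% and 0% of endothelial-type nuclei and in 3.82%, 3.18%, 2.17% and 2.78% of cholangiocyte-type nuclei, each class having 3 or more of its own markers. The median UMIs per nucleus were 2773, 2018, 2622.5 and 2578 in members and 2503, 1925.5, 2229 and 1946.5 in macrophage-type nuclei. The member share in CKO replicate 2 lay within that background, while the other 3 libraries lay above it. Cholangiocyte-type nuclei moved with the members, at 16.7%, 5.82%, 4.60% and 0.694% of all nuclei, and stellate-type nuclei made up 2.84%, 1.73%, 1.89% and 1.14%. Per 100 cholangiocyte-type nuclei there were 4.98, 12.5, 4.89 and 2.78 members, so the CKO replicate 1 ratio was close to that of WT replicate 1, whereas per 100 stellate-type nuclei there were 29.3, 42.0, 11.9 and 1.69. The part of the makeup of each library in the member share was not tested.

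**Figure D1:**
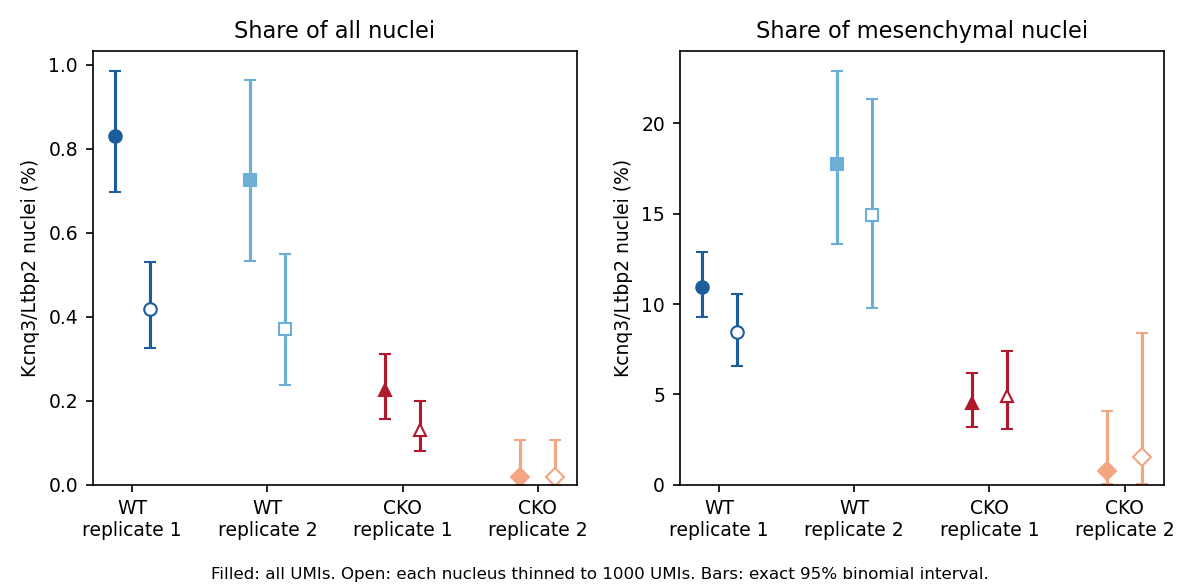
Share of Kcnq3/Ltbp2 nuclei in each library, as a percentage of all nuclei and of mesenchymal nuclei, with 95% Clopper-Pearson intervals for counting error; filled points use all UMIs and open points nuclei thinned to 1000 UMIs. Both CKO libraries, at 0.225% and 0.0193% of all nuclei, lie below both WT libraries, at 0.831% and 0.725%.

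The threshold of 2 portal markers cut through a range of marker numbers. In WT replicate 1, 873 mesenchymal nuclei had no portal marker, 207 had 1, 56 had exactly 2, 29 had 3 and 48 had 4 or more. In CKO replicate 1 the same counts were 677, 83, 14, 9 and 13. From no marker to 4 or more, the median UMIs per nucleus were 2202, 2576, 2671, 2879 and 3000 in WT replicate 1, 1906.5, 2057.5, 1809.5, 2126 and 2529 in WT replicate 2 and 2125, 2320, 2638.5, 2529 and 2625 in CKO replicate 1. Nuclei with 4 or more markers were thus deeper than those with none in these 3 libraries, with uneven steps between, and the part of depth was not tested. Col8a1, a short-chain collagen outside the rule, had 67.8, 125 and 32.2 CPM in nuclei with 1 marker, just outside the threshold, and 125, 546 and 124 CPM in those with 2, just inside it, in WT replicate 1, WT replicate 2 and CKO replicate 1. In nuclei with 4 or more markers it had 1048, 662 and 728 CPM. Ntm, a neuronal adhesion protein, ran opposite, with 759, 376 and 749 CPM at 1 marker. It had 237, 114 and 619 CPM at 2 and 83.8, 132 and 56.0 at 4 or more. Both genes were chosen from the contrast of members with stellate-type nuclei, so their direction here was partly set by that choice.

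**Figure D2:**
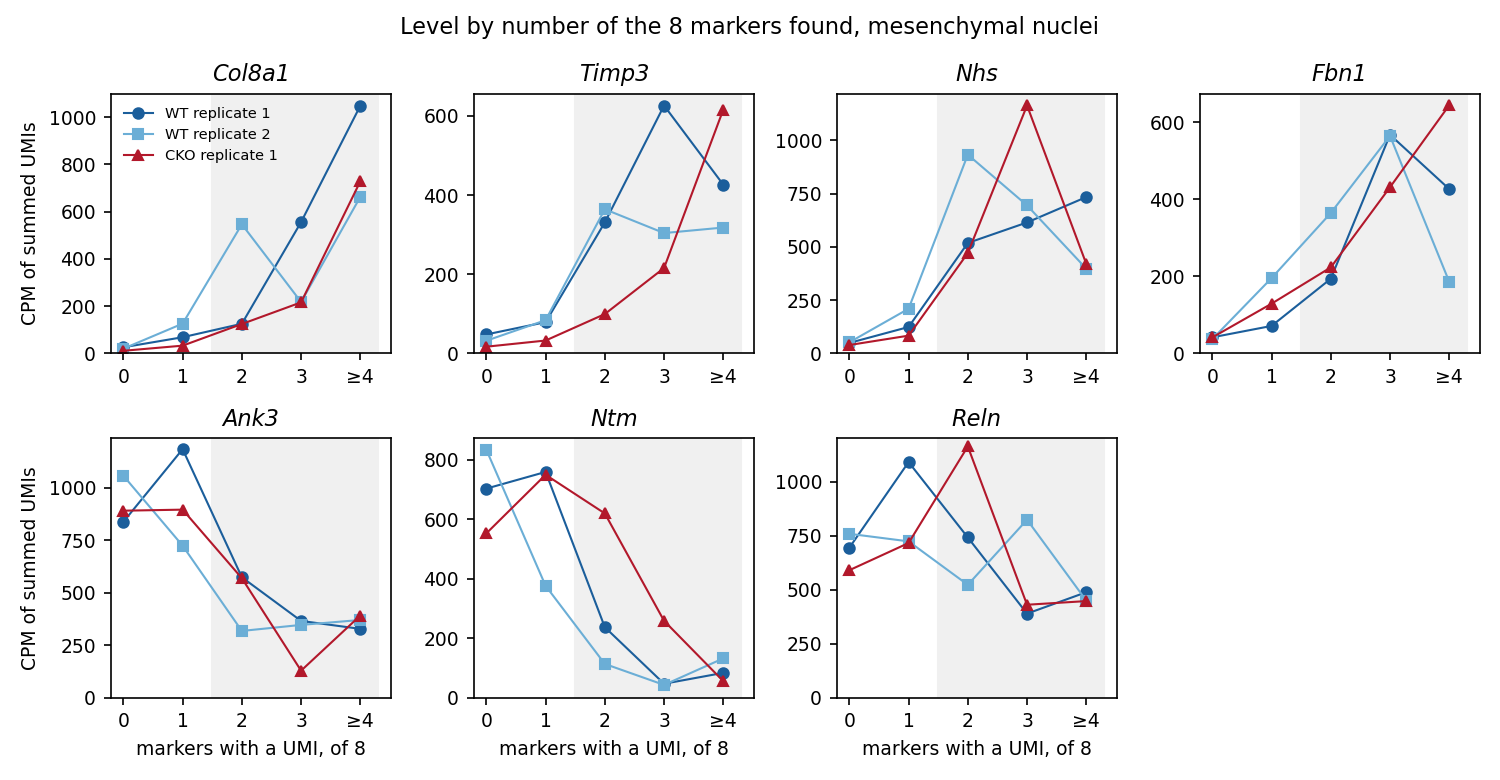
Level (CPM) of 7 genes outside the portal markers in mesenchymal nuclei grouped by the number of portal markers with a UMI, one line per library with more than 1 member; the shaded numbers met the rule. With 4 or more markers, Col8a1, Timp3, Nhs and Fbn1 are higher and Ank3, Ntm and Reln lower than with none in each library shown. The steps between are not even. Reln is a stellate marker, and the others were chosen from the contrast of members with stellate-type nuclei. Their direction was partly set by that choice.

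Beside the rule genes, Kcnq3/Ltbp2 nuclei differed from stellate-type nuclei of the same library in collagen, adhesion and signalling genes. Members and comparator were separated by genes of this contrast, so its values are a description with no test. Of 8709 genes with 40 or more UMIs in the sums of both groups, 16.8% were higher in members in each of the 3 libraries and 1.17% were 2-fold or more higher in each. On the other side, 17.7% were lower in each and 0.643% were 2-fold or more lower. The median log2 ratio over these genes was between -0.03 and -0.0028 in the 3 libraries.

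Col8a1 had 559, 516 and 363 CPM in members and 43.7, 36.3 and 20.8 in stellate-type nuclei, 14.3-fold more over the 3 libraries. Timp3, an inhibitor of matrix metalloproteinases that is bound to the matrix, had 430, 334 and 312 CPM against 72.3, 36.3 and 27.3. Both genes were higher in members of every one of these libraries by more than the libraries differed among themselves. Ncam1, an adhesion molecule of the immunoglobulin family, had 232, 401 and 181 CPM against 36.9, 32.3 and 5.21. Piezo2, a channel opened by mechanical force, had 546, 611 and 554 CPM against 101, 105 and 82.0, a 5.95-fold difference with little spread. Fgf2, a growth factor held by heparan sulfate, had 90.2, 124 and 131 CPM against 20.3, 20.2 and 27.3. Others of the 20 genes whose lowest ratio in the 3 libraries was largest were Nhs (6.52-fold), Gas7 (7.17-fold), Ano4 (5.78-fold), Chst11, a chondroitin sulfotransferase (4.81-fold), Magi2, a scaffold protein (4.00-fold), Ptgis, the prostacyclin synthase (5.80-fold), and Serpine2, a protease inhibitor (14.4-fold). The Serpine2 fold rests on few UMIs in both groups, so its size is uncertain.

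Several genes were lower in members in each of the 3 libraries. Colec10, a collectin, had 23.2, 28.6 and 20.1 CPM in members against 248, 218 and 327 in stellate-type nuclei. Ank3, which anchors membrane proteins to the cytoskeleton, had 438, 344 and 403 CPM against 1850, 1819 and 1969. Ntm had 139, 105 and 332 CPM against 1456, 1444 and 1305, and its member level was highest in CKO replicate 1. Mapt, a microtubule protein, had 1 UMI in all members of the 3 libraries against 145, 23 and 78 UMIs in stellate-type nuclei. The stellate marker list summed to 2296, 2110 and 2175 CPM in members against 6113, 5521 and 5520, a difference partly set by the definition of the comparator. Of the members, 88, 32, 28 and 0 nevertheless had at least 2 stellate markers, and 13, 5, 4 and 0 had none of them.

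**Figure D3:**
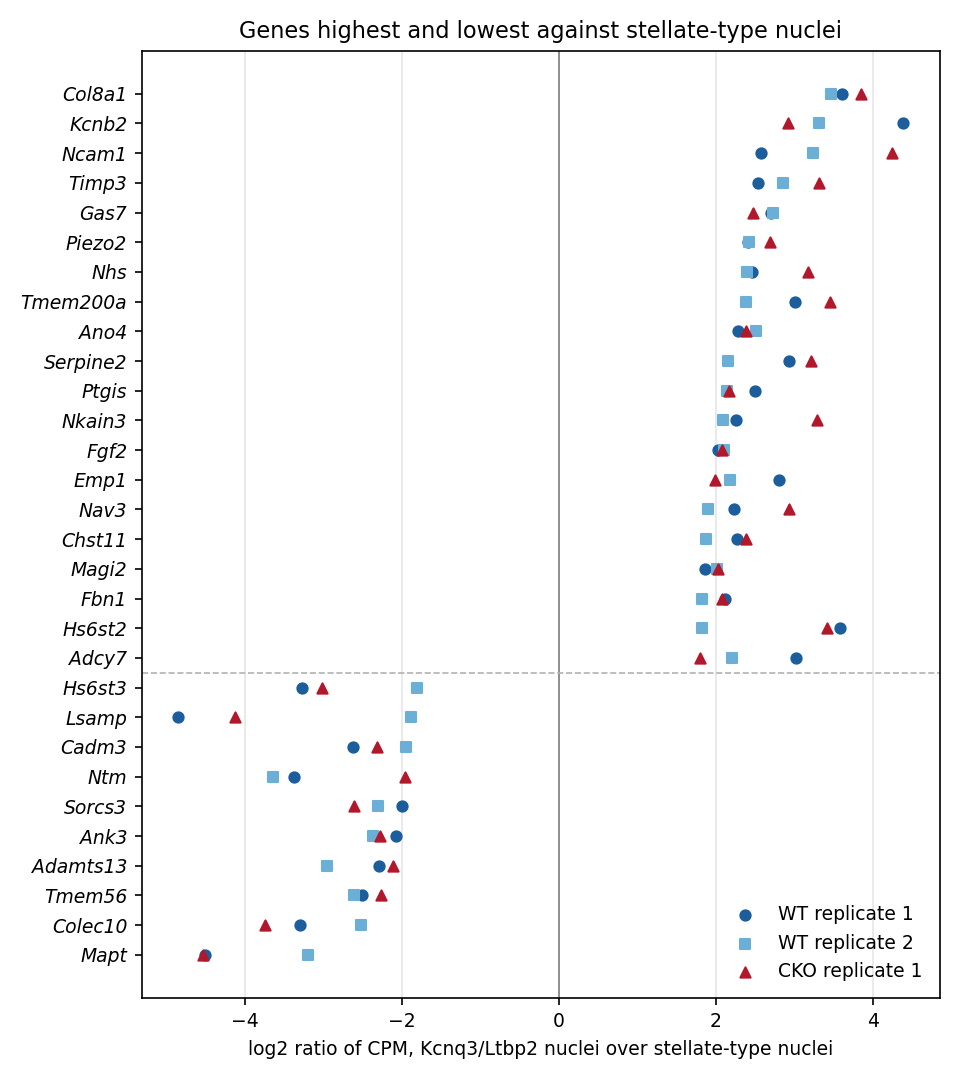
Log2 ratio of the level in Kcnq3/Ltbp2 nuclei to that in stellate-type nuclei of the same library for the 20 genes whose least extreme ratio was highest and the 10 for which it was lowest, one point per library with more than 1 member. The points of each gene lie on one side of 0, as the choice of genes requires, with Col8a1 14.3-fold higher and Ank3 4.76-fold lower in members over the 3 libraries.

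Matrix genes outside the rule were more often higher than lower in members. The list held 30 genes, of which 29 had a UMI in members and 21 were measured at 40 or more UMIs. Of the 21, 9 were higher in members in each library, 5 of them 2-fold or more, and 1 was lower. Over all measured genes, 16.8% were higher in each library, 1.17% 2-fold or more higher and 17.7% lower. The median log2 ratio of the list was 0.82, 0.53 and 0.46. The list summed to 4495, 4353 and 3757 CPM in members against 2573, 2291 and 2322 in stellate-type nuclei and 807, 515 and 882 in macrophage-type nuclei, so matrix RNA was also counted in nuclei of that type.

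The genes 2-fold or more higher in each library were Col8a1, Col6a3, Fbn1, Col5a2 and Vcan. Col5a2, which sets the width of collagen fibrils, had 580, 840 and 493 CPM in members against 175, 113 and 195. Col6a3, of the beaded filament collagen, had 595, 458 and 534 CPM against 151, 125 and 97.7. Fbn1, the microfibril protein fibrillin, had 361, 344 and 423 CPM against 81.3, 88.7 and 96.4, and Vcan, a large proteoglycan, had 51.5, 38.2 and 30.2 against 6.02, 8.07 and 7.81. All of these levels lay above every stellate-type level of the same gene, though those of Vcan came from few UMIs. The matricellular genes Sparc and Bgn were 1.66- and 1.70-fold higher. Fn1, which encodes fibronectin, had 477, 449 and 443 CPM against 537, 444 and 661, so it was not higher in each library, and Col14a1, a collagen on fibril surfaces, was lower in each, at 505, 430 and 403 CPM against 765, 706 and 608. Tnc, a matricellular glycoprotein, had 183, 38.2 and 211 CPM, and in WT replicate 2 it was no higher than in stellate-type nuclei (40.3 CPM). The list was therefore not higher throughout.

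**Figure D4:**
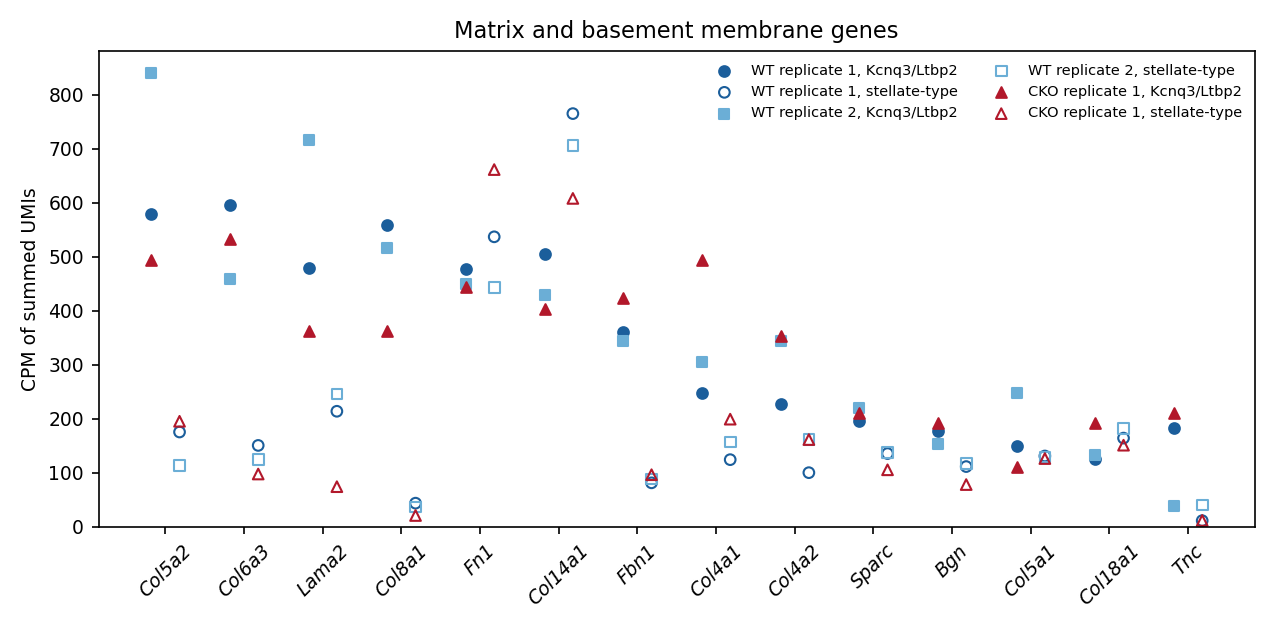
Level (CPM) of genes of the matrix and basement membrane lists in Kcnq3/Ltbp2 nuclei and in stellate-type nuclei, one point per library with more than 1 member. Col8a1, Col6a3, Fbn1, Col5a2 and Lama2 lie higher in members in every library shown, Col14a1 lies lower, and Fn1 overlaps.

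Of 12 measured basement membrane genes, 6 were higher in members in each library and 2 were lower. The shares over all measured genes were 16.8% and 17.7%. Lama2, the laminin chain of mesenchymal basement membranes, had 479, 716 and 363 CPM against 214, 246 and 74.2. Col4a1 and Col4a2, which form the common collagen IV network, had 247, 305 and 493 CPM against 124, 157 and 199, and 227, 344 and 352 CPM against 100, 161 and 161. Lamc1, the shared laminin gamma chain, was lower by a small margin, at 144, 153 and 131 CPM against 174, 169 and 145.

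Of 14 measured genes of matrix remodelling, 8 were higher in each library and 1 was lower, against 16.8% and 17.7% of all measured genes. Beside Timp3, the second gene 2-fold or more higher was Loxl1, a lysyl oxidase that cross-links elastin, with 77.3, 47.7 and 50.4 CPM against 15.1, 8.07 and 13.0. Few UMIs lay behind the Loxl1 levels of WT replicate 2 and CKO replicate 1. Adamts2, which trims procollagen, had 369, 430 and 211 CPM against 177, 173 and 141. Adamts12 had 263, 267 and 504 CPM against 148, 181 and 232, and P4ha1, a collagen prolyl hydroxylase, was lower in each, at 90.2, 66.8 and 50.4 CPM against 112, 105 and 84.6. Mmp2, a gelatinase, had 41.2 and 28.6 CPM in the WT libraries and no UMI in members of CKO replicate 1. That member sum was the smallest of these libraries, and few Mmp2 UMIs would be counted there at the WT level.

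The TGF-beta list was higher in members in each library for 10 of 15 measured genes and lower for 1. For all measured genes these shares were 16.8% and 17.7%. Tgfbr2, the ligand-binding receptor, had 278, 334 and 393 CPM against 124, 68.6 and 142, and Tgfbr1, its signalling partner, had 361, 258 and 262 against 244, 141 and 193. Tgfbr3, a co-receptor, was lower in each, at 168, 191 and 151 CPM against 285, 274 and 236. The ligand Tgfb2 had 82.5, 143 and 50.4 CPM against 47.4, 28.2 and 46.9. Of the response genes, Smad7, the inhibitory SMAD, had 131, 124 and 201 CPM against 81.3, 72.6 and 70.3, and Ccn2, a matricellular protein, had 74.7, 115 and 90.6 against 41.4, 60.5 and 13.0. Receptors, a ligand and response genes were thus each represented among the 10.

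Of 12 integrins and related genes, 8 were higher in each library and 1 was lower, where all measured genes had 16.8% and 17.7%. Itgb5, a vitronectin receptor subunit, had 258, 305 and 312 CPM against 128, 141 and 100, and Itgbl1, an integrin-like secreted protein, had 186, 153 and 90.6 against 54.2, 44.4 and 7.81. Itgb3 was lower, at 10.3, 19.1 and 0 CPM against 76.8, 84.7 and 88.5. Of 18 guidance genes, 10 were higher in each and 1 was lower. Robo2, a Slit receptor, had 2595, 2310 and 2880 CPM against 1443, 1339 and 895, Unc5b, a netrin receptor, had 219, 172 and 242 against 64.0, 56.5 and 41.7, and the netrin gene Ntn1 was lower, at 103, 105 and 40.3 against 255, 234 and 254.

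Among 17 transcription factors, 8 were higher in each library and 1 was lower, beside 16.8% and 17.7% of all measured genes. Prrx1, a homeobox factor of mesenchyme, had 124, 76.4 and 171 CPM against 16.6, 20.2 and 3.91, and Runx1 had 363, 267 and 393 against 124, 64.5 and 180. Lhx2, a factor known to restrain stellate cell activation, was lower, at 7.73, 19.1 and 20.1 CPM against 27.9, 24.2 and 36.5. These Lhx2 levels came from very few member UMIs, so the difference is uncertain. Of 6 Hedgehog genes, 3 were higher in each, led by the co-receptor Boc with 129, 66.8 and 121 CPM against 14.3, 12.1 and 2.60, while Hhip, which sequesters Hedgehog ligands, had no UMI in members against 24.1, 8.07 and 49.5 CPM. Of 10 Notch pathway genes, 3 were higher and 1 was lower in each, with Maml2, a co-activator, at 652, 449 and 493 CPM against 415, 290 and 296.

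Growth factor, retinoid and other signalling lists held genes on either side. Over all measured genes, 16.8% were higher and 17.7% lower in each library. Of 15 secreted signals, 5 were higher in each library and 2 were lower. Hgf, the hepatocyte growth factor, had 598, 401 and 614 CPM against 1085, 605 and 992, and Vegfc, a lymphatic growth factor, had 356, 344 and 302 against 188, 161 and 184. Of 9 retinoid genes 2 were higher and 4 lower, of 8 Wnt genes 4 and 2, of 14 heparan sulfate genes 3 and 3, and of 5 platelet-derived growth factor genes 0 and 1. Ror1, a Wnt receptor, had 871, 726 and 806 CPM against 294, 359 and 146. Of the 7 contractile genes, 5 were higher in each and none was lower, none of them 2-fold. Actn1, an actin cross-linker, had 260, 248 and 252 CPM against 134, 76.6 and 115. Of 5 cell cycle genes 1 was higher in each, and Diaph3, needed for cytokinesis, had 1, 14 and 3 UMIs in members.

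For the genotype comparison, the rule did not use genotype and a test was possible. The targeted gene Rbpj (chromosome 5, 53466152 to 53657362, forward strand, GRCm38) had 92.8, 76.4 and 80.6 CPM in members of WT replicate 1, WT replicate 2 and CKO replicate 1, and no UMI in the member of CKO replicate 2. Apart from that single member, these levels lay above the 69.3, 60.5, 72.9 and 32.7 CPM of stellate-type nuclei. The deletion was directed at hepatic progenitor cells and the deleted exons are not named, so Rbpj in members does not check the labels.

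No gene was called between CKO and WT in Kcnq3/Ltbp2 nuclei in the fit over all 4 libraries. Of 1955 genes tested, 0 passed an adjusted p of 0.05 with edgeR's quasi-likelihood test and Benjamini-Hochberg adjustment (0% called), and 77 had an unadjusted p under 0.05. DESeq2 called 0 as well, with 25 under that unadjusted p. The member sum of CKO replicate 2 comes from 1 nucleus, and 2578 UMIs cannot show most differences.

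No matrix gene outside the rule was called by genotype in the fit over all 4 libraries. Of 10 matrix genes tested, 3 had positive and 7 negative log2 changes and none passed the test, and their median was -0.17 against -0.11 over all genes tested. Without CKO replicate 2 that median was -0.00073. Col8a1, at 559, 516 and 363 CPM, had a log2 change of -0.76 ± 0.63 (SE), and Col4a1, at 247, 305 and 493 CPM, one of 0.82 ± 0.53 (SE), both with an edgeR adjusted p of 0.991. Adamts5, which degrades aggrecan, had 106, 115 and 30.2 CPM and a log2 change of -1.88 ± 0.89 (SE) with the same adjusted p. Of 5 basement membrane, 6 remodelling, 8 TGF-beta, 7 integrin, 10 guidance and 10 transcription factor genes tested, 0 passed. Their median log2 changes were 0.23, -1.20, 0.038, -0.18, -0.58 and -0.0032 in that order. The remodelling genes had 5 negative changes and 1 positive. The 7 mesenchymal genes of the rule, with the fibrillar collagens, had a median of -0.68, with 6 negative and 1 positive.

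**Figure D5:**
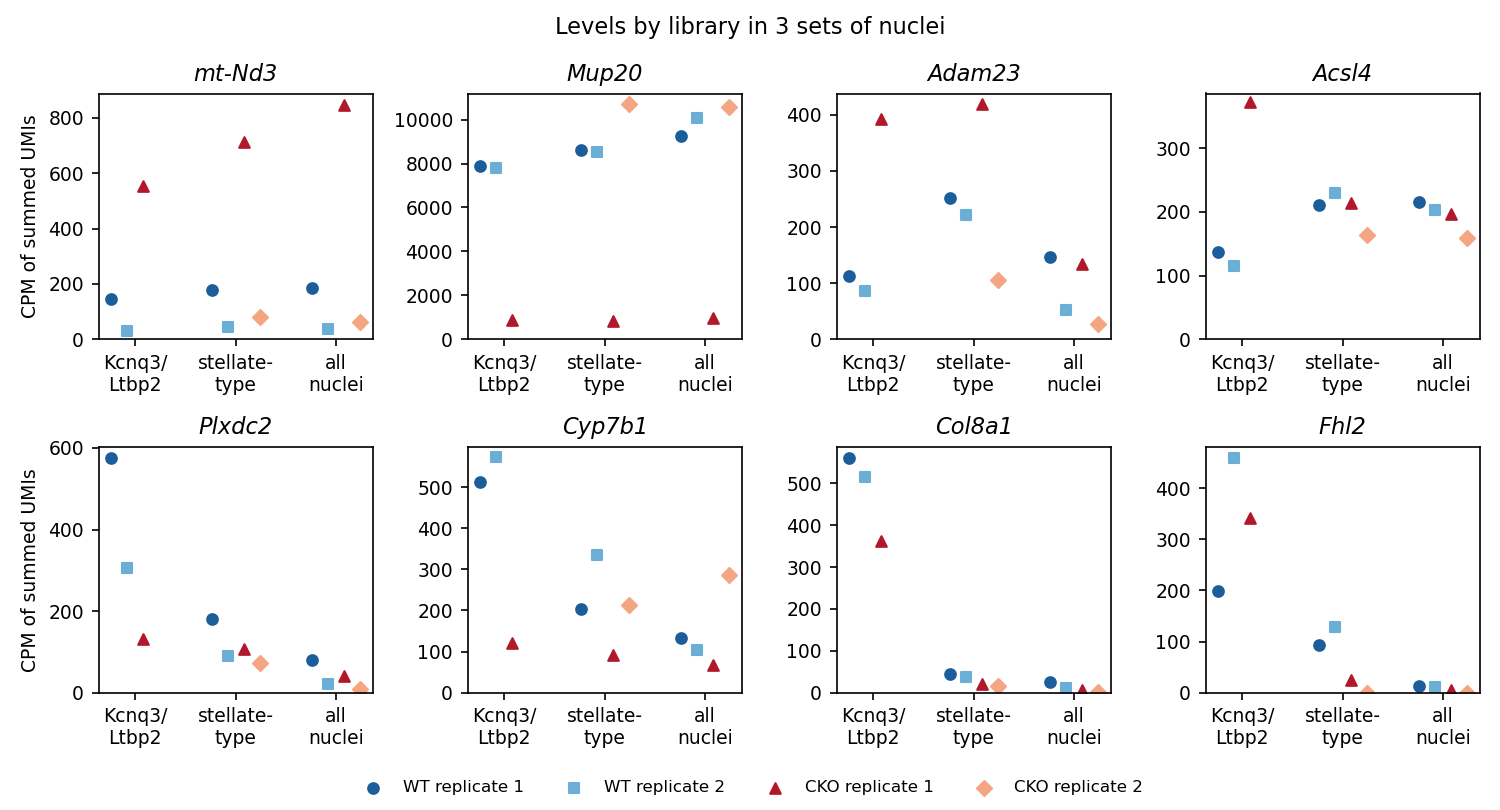
Level (CPM) of genes in Kcnq3/Ltbp2 nuclei of WT replicates 1 and 2 and CKO replicate 1, beside stellate-type nuclei and all nuclei of each library. Mup20 is lower and mt-Nd3 higher in CKO replicate 1 in all 3 sets of nuclei, whereas Acsl4 is higher in the members of CKO replicate 1 and not in its stellate-type nuclei.

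Leaving out CKO replicate 2 made calls, and these compare 1 CKO library with 2 WT libraries on the assumption that it varies as the WT libraries do. Of 2588 genes tested, 29 passed with edgeR, 1.12%, of which 21 were higher and 8 lower in CKO replicate 1. Of the 29, 11 were higher mitochondrial genes, and for 19 the level in all nuclei of CKO replicate 1 lay 2-fold or more outside the WT range as well. mt-Nd3, a subunit of respiratory complex I named here after its values were seen, had 144, 28.6 and 554 CPM in members and 187, 36.7 and 846 CPM in all nuclei of the same libraries. Mup20 had 7891, 7781 and 866 CPM in members. Both genes stood apart in the same direction in members and in the whole library.

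The other 10 genes of the 29 did not meet that bound in all nuclei. Cyp7b1, an oxysterol hydroxylase (chromosome 3, 18071950 to 18243338, reverse strand), had 513, 573 and 121 CPM in members and a log2 change without CKO replicate 2 of -2.15 ± 0.48 (SE, edgeR adjusted p = 0.00172). Plxdc2, a membrane protein with a plexin repeat (chromosome 2, 16356304 to 16755839, forward strand), had 575, 305 and 131 CPM and fell by 1.80 on the log2 scale (edgeR adjusted p = 0.0132). Sntb1, a syntrophin of the dystrophin complex, had 289, 162 and 40.3 CPM. All 3 genes were lower in the CKO replicate 1 members than in either WT library. Stellate-type nuclei of the same libraries had 203, 335 and 92.5 CPM of Cyp7b1, 181, 88.7 and 108 of Plxdc2 and 377, 331 and 189 of Sntb1, so Cyp7b1 and Sntb1 were lowest in CKO replicate 1 there too, while CKO replicate 2 had 213 CPM of Cyp7b1 and 245 of Sntb1.

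Adam23, a cell surface protein that binds integrins (chromosome 1, 63445891 to 63596276, forward strand), had 113, 85.9 and 393 CPM and rose by 1.93 on the log2 scale without CKO replicate 2 (edgeR adjusted p = 0.00116). Calcrl, the receptor of adrenomedullin and calcitonin gene-related peptide, had 124, 66.8 and 373 CPM. In stellate-type nuclei Adam23 had 252, 222 and 418 CPM and Calcrl 322, 177 and 380, so both were highest in CKO replicate 1 there as well, while CKO replicate 2 had 106 and 229 CPM. Acsl4, which activates arachidonic acid, had 137, 115 and 373 CPM in members, whereas stellate-type nuclei had 211, 230 and 214 CPM in the same libraries and 164 in CKO replicate 2. Over all 4 libraries these 6 genes had edgeR adjusted p between 0.561 and 0.882. The remaining 4 were Hpd, Tmem108, Rnase4 and AY036118, named after their values were seen.

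Whether a CKO change in members differed from that in stellate-type nuclei was tested as an interaction, with each library as a block. Of 4367 genes tested with edgeR, 0 passed (0% called), and 110 had an unadjusted p under 0.05. None of the 29 genes above passed this test, with or without CKO replicate 2. Without CKO replicate 2, 3 of 7229 genes passed, 0.0415%, all with a more positive change in members.

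Fhl2, a LIM-domain cofactor (chromosome 1, 43123074 to 43196984, reverse strand), had 198, 458 and 342 CPM in members and 93.4, 129 and 24.7 CPM in stellate-type nuclei of the same libraries, with no UMI in those of CKO replicate 2. Its change differed by 2.40 ± 0.48 on the log2 scale (SE, edgeR adjusted p = 0.00482), and by 2.37 with an adjusted p of 0.409 over all 4 libraries. Robo2 differed by 0.82 ± 0.17 (SE, edgeR adjusted p = 0.00482), with stellate-type levels of 1443, 1339 and 895 CPM, but by 0.05 with CKO replicate 2 included. Ntm differed by 1.46 ± 0.34 (SE, edgeR adjusted p = 0.0397), and by 1.19 with an adjusted p of 1 over 4 libraries. In Fhl2 and Robo2 the stellate-type level in CKO replicate 1 lay below both WT levels, while the member level did not.

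Shares of mitochondrial and hepatocyte RNA also differed between libraries. Mitochondrial genes took 1.19%, 0.333%, 3.05% and 0.621% of member UMIs and 1.26%, 0.354%, 3.46% and 0.592% of stellate-type UMIs. A list of 13 hepatocyte genes took 3.23%, 3.21%, 3.66% and 5.39% of member UMIs. Their part in the calls was not tested.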

How the data were processed

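The deposited matrices hold raw UMI counts per gene and barcode, made by the authors with Cell Ranger 5.0.1 on mm10, per the submitters' processing notes. Per the labels, 10x Genomics 3' libraries were made from nuclei of fresh-frozen liver with paraformaldehyde added to the homogenate. Whether intronic reads were counted is not given in the sources used here. Of 32285 gene identifiers, 32235 matched the GRCm38 annotation, which gave the coordinates, and 7 added sequences were left in. No barcode was removed.

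The members and the gene lists were chosen with earlier results of these data known. Member UMIs of each library were added up, genes were filtered with filterByExpr, and the two-sided quasi-likelihood test of edgeR 4.0.16 was run in R 4.3.3 after TMM scaling. DESeq2 1.42.0 was an alternative. CPM are UMIs relative to all UMIs of the summed nuclei, and log2 ratios used a prior count of 2 scaled to library size. Shares and thinning to 1000 UMIs were computed in Python 3.11.15 with scipy 1.17.1, and doublet scores in scanpy 1.11.5. The fits were run on simulated sums with known changes, at the real library sizes and at equal ones. A match of fitted to set changes was required only at equal sizes. Recovery at the real sizes is not given here, so the simulation does not show what the fits could find. Other alternatives were RLE size factors, no count filter, 3 or more markers, removal of high doublet scores, the replicate block and leaving out each library.

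Genes named by rule were Rbpj, the 25 rule genes, the 10 with the smallest p per direction, the 2 with the smallest p and the 2 most abundant of each list, the 20 highest and 10 lowest in members against stellate-type nuclei and the 5 with the smallest interaction p per direction. Other list genes are given as examples chosen after their values were seen. The 20 and 10 were ranked over 3 libraries and not 4, since 1 library had 1 member. The replicate numbers pair no libraries by any label.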

Additional observations from a re-analysis of the deposited data

Results flagged for a closer look

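A transcript named EYFP, one of the sequences added to the reference, had 6 UMIs in Kcnq3/Ltbp2 nuclei of WT replicate 1 and 0 in those of the other 3 libraries. It lies outside the genes compared, and 6 is above the 3 counts that a count of 0 allows in the same nuclei. These 6 were among 388015 UMIs, and the other libraries, with 104747, 99293 and 2578 member UMIs, were too shallow for their counts of 0 to show a lower level. In all nuclei together EYFP had 265, 8, 20 and 39 UMIs, and in stellate-type nuclei 10, 0, 0 and 0. Cholangiocyte-type nuclei had 70, 2, 0 and 0. The labels do not say which cells carried it.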

How the results depend on the processing

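The lower share of Kcnq3/Ltbp2 nuclei in CKO kept its direction under every alternative run that could change it. With a replicate block the difference in the share of all nuclei was -0.606 points within replicate 1 and -0.706 within replicate 2, and in the share of mesenchymal nuclei -6.44 and -17.0 points.

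The count of 0 genes called by genotype was 17 with 3 or more markers, a rule that also leaves no nucleus in CKO replicate 2, 1 with no count filter, and 0 to 29 when each library was left out (29 without CKO replicate 2, and 24, all lower, without CKO replicate 1, where the CKO group is 1 nucleus). The interaction count was 0 to 51 when libraries were left out, with 51 without CKO replicate 1. Genes of the rule are left out of these counts, and with them the counts without CKO replicate 1 were 25 and 52. The median log2 change of the matrix list, -0.17, was -0.98 with no count filter and -0.43 with the replicate block. With each library left out it was -7.55 to -0.00073. The -7.55 came without CKO replicate 1, where the median over all genes outside the rule was -7.05. The replicate block made 0 calls by genotype and 0 in the interaction. In stellate-type sums, and not in members, the deviations of WT replicate 1 and CKO replicate 1 from their group means correlated at 0.11 over 7316 genes. A minimum of 1000 UMIs removed no nucleus, so it could change no count. Thinning the sums to the smallest left 9 genes and no matrix gene.

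When each library was left out, log2 changes of genes that reversed ran from -7.21 to 3.50 for mt-Nd3, -7.13 to 1.96 for Sult1a1, -7.16 to 1.93 for Adam23, -7.18 to 1.91 for Calcrl, -7.47 to 1.55 for Acsl4, -0.36 to 0.89 for Col4a1 and -7.46 to 0.67 for Smad7. Interaction changes ran from -1.30 to 2.57 for Fhl2, -2.82 to 0.82 for Robo2, -8.91 to 1.46 for Ntm, -8.41 to 1.47 for Acsl4 and -2.22 to 0.17 for Mup20. The Robo2 interaction was also -0.016 with RLE size factors, -0.079 with no filter and -0.055 with the replicate block, and that of mt-Nd3 was 0.079 with the block. Without CKO replicate 1, where the CKO group is 1 nucleus, changes were negative over most genes. Their median over genes outside the rule was -7.05 in members and -7.41 in the interaction. The cause of the reversals was not tested.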
